A study of Mus musculus with 7 samples.

Results

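The nuclear receptor superfamily was described through 46 member genes, taken by symbol from the 23282 entries of a gene count table. Each of the 46 symbols was listed in the table once. Messenger RNA was measured in tdTomato-positive tumour cells, sorted by flow cytometry from adult C57BL/6 mice with glioblastoma, a malignant brain tumour. The 3 WT libraries came from mice of genotype WT and the 4 Fyn-KO libraries from mice of genotype FYN-KO, and per the series text the cells of each were sorted and their libraries made independently, so p-values measure the spread between these libraries. Both groups share the strain, the age class, the tumour label and the tdTomato marker, a red fluorescent protein, and the labels name no drug treatment for either. How the tumours were started, what drives tdTomato and which part of Fyn is altered were not given in the sources used here.

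Nuclear receptors are transcription factors that carry a zinc-finger domain for binding DNA and, in most members, a pocket for a small lipid-like ligand such as a steroid, a retinoid, thyroid hormone, a fatty acid or an oxysterol. A bound ligand changes the shape of the receptor, which then trades corepressors for coactivators at the promoters and enhancers of its targets, while orphan members work without a known natural ligand. In brain and its tumours they are known for roles in neural stem cells, oligodendrocyte maturation, cholesterol handling and the daily clock, and in gonad and adrenal for steering steroid hormone production.

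Fyn itself, a Src-family kinase and the gene the genotype labels refer to, was counted at 1039, 719.9 and 1604 CPM (counts per 1000000 counts of the library) in the WT libraries and 105, 106, 74.5 and 189.8 CPM across the Fyn-KO libraries. It was lower in Fyn-KO by 3.43 on the log2 scale (SE 0.51, edgeR quasi-likelihood test, Benjamini-Hochberg adjusted p = 0.0121), and a 3' tag outside the altered part would not check the alteration. The libraries held 8976745 to 16371244 counts. They differed in how many genes they detected, 7723, 9924 and 9704 in WT against 13535 to 14548 in Fyn-KO, although the WT libraries were the deeper ones. They also differed in markers of cell type. The 9 oligodendrocyte lineage and glioma markers (among them Olig2 and Sox10) summed to 6671 to 11844 CPM in WT and to 153 to 862 CPM in Fyn-KO, and all 9 were counted in Fyn-KO replicates 3 and 4. The 12 markers of steroid-producing tissue (such as Star, Cyp11a1 and Lhcgr) summed to 4.46, 7.15 and 285 CPM in WT and to 22971 to 25995 CPM in Fyn-KO, with 10 or 11 of the 12 counted and Mc2r, the receptor for corticotropin, at no count in any library. Markers of lung and liver were higher in sum in WT. The 5 lung markers summed to 527, 118 and 789 CPM in WT and to 0.107 to 7.98 CPM in Fyn-KO, and the 6 liver markers, mostly Alb, to 423, 396 and 269 CPM in WT and to 4.23 to 10.1 CPM in Fyn-KO. Libraries of both groups thus held transcripts that their tumour cell label does not name, and in Fyn-KO the lineage markers summed lower. Every comparison here sets the libraries labelled Fyn-KO against those labelled WT. In bulk RNA of this kind, fewer cells of a type and less RNA per cell cannot be told apart.

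Receptor transcripts summed to a larger share of the library in Fyn-KO, with a few genes at the highest levels. The 46 genes summed to 1165, 1056 and 1096 CPM in the WT libraries and to 2055, 2139, 2110.4 and 1884 CPM in the Fyn-KO libraries, and the groups did not overlap. Of the 46, 17, 23 and 23 had a count in the WT libraries and 34, 37, 37 and 36 in the Fyn-KO libraries. Those with 10 counts or more numbered 8, 20 and 8 in the WT libraries, against 34, 37, 34 and 35 in the Fyn-KO libraries. Over all 23282 entries, too, the WT libraries detected 7723, 9924 and 9704 genes and the Fyn-KO libraries 13535 to 14548. The highest Fyn-KO means were those of Nr2f2, Rora and Nr5a2, at 472, 286 and 202 CPM. Their WT means were 45.9, 13.3 and 0 CPM, and Nr2f2 and Rora did not pass the test used below.

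**Figure D1:**
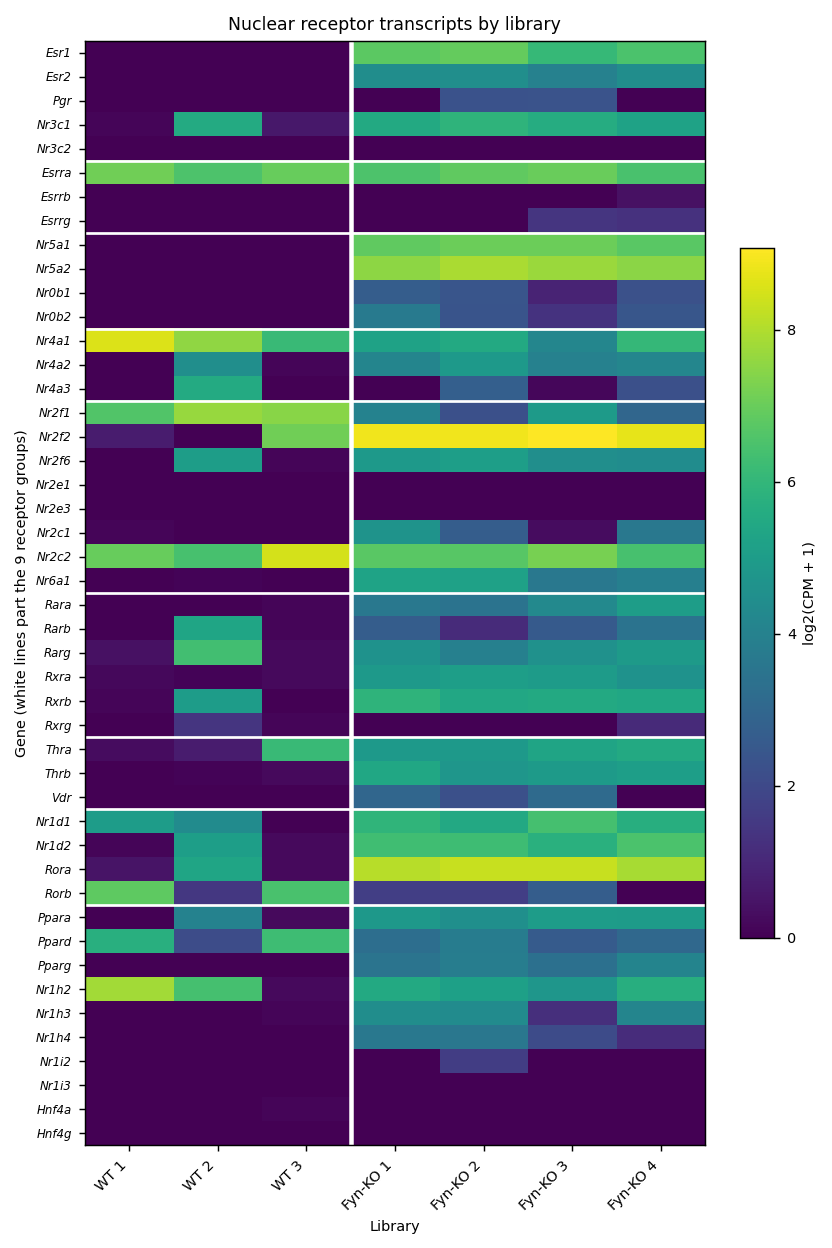
Heat map of the 46 nuclear receptor genes (rows, in 9 groups parted by white lines) in the 3 WT and 4 Fyn-KO libraries (columns), coloured by log2(CPM + 1). The Fyn-KO columns look alike, whereas the WT columns differ from each other, with WT replicate 2 holding 20 receptors at 10 counts or more and WT replicates 1 and 3 holding 8 each.

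Of the 46 receptors, 35 had enough counts to be tested and 11 did not. Among the 35, 14 were higher in Fyn-KO, 2 were lower and 19 did not pass an adjusted p of 0.05, where the edgeR quasi-likelihood test with Benjamini-Hochberg adjustment called 19% of the 13122 tested genes higher and 3.51% lower. All 14 that were higher, together with the vitamin D receptor gene Vdr, had under 10 counts in each WT library, as did 23.1% of all tested genes. A gene of that kind was tested only because it was counted in Fyn-KO, so its direction followed from the filter. Of the 20 other tested receptors, those with 10 counts or more in a WT library, 0 were higher and 2 were lower. The background among the 10096 genes of that kind was 1.52% higher and 4.57% lower. At an unadjusted p under 0.05, 1 of these 20 was higher and 3 were lower, and DESeq2 called 1 higher and 3 lower. Each Fyn-KO library lay above each WT library for 20 of the 35 receptors (30.1% of all tested genes), and below each for 2 (7.32%). The 20 include all 14 called higher, whose direction followed from the filter. The rest were Nr2f2, Rxrb, Nr1d1, Nr1d2, Rora and Ppara. No share was computed for them over genes with 10 counts or more in a WT library. The median log2 fold change, Fyn-KO over WT, was 2.95 over the 35 receptors and 0.45 over all tested genes. Both medians stayed the same when genes at no count in a group were set to the ratio against that group's floor. Genes so set keep their direction, so this does not check the filter. The 35 include the 15 with under 10 counts in each WT library, so their median partly followed from the filter. It was not computed for the 20 others. None of the 14 calls passed under limma-voom with quality weights, where their Benjamini-Hochberg adjusted p ran from 0.216 for Nr5a1 to 0.720 for Nr2c1.

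The WT libraries also differed from each other. For 14 of the 35 tested receptors, 1 WT library had 100 counts or more while another had under 10 (46.3% of all tested genes), and 5 receptors had at least 10 counts in all 7 libraries (25.3% of all tested genes). The 14 were Nr3c1, Nr4a2, Nr4a3, Nr2f2, Nr2f6, Rarb, Rarg, Rxrb, Thra, Nr1d1, Nr1d2, Rora, Ppara and Nr1h2, and the 5 were Esrra, Nr4a1, Nr2f1, Nr2c2 and Ppard. The labels give no batch, so this spread could not be tied to one. A gene with nearly all its WT counts in 1 library was, without that library, tested only through Fyn-KO. Its direction then followed from the filter. This held without WT replicate 2 for Nr3c1, Nr4a2, Nr2f6, Rarb, Rarg, Rxrb, Nr1d2, Rora, Ppara, Arntl and Inha. Without WT replicate 3 it held for Nr2f2, Thra and Star. Without WT replicate 2, edgeR called 4585 of 13991 tested genes higher.

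Nr5a1 and Nr5a2 encode steroidogenic factor 1 (SF-1) and liver receptor homolog 1 (LRH-1), which bind DNA as monomers and drive steroid hormone synthesis in the gonads and adrenal. Nr0b1 and Nr0b2 encode DAX1 and SHP, atypical receptors that lack a DNA-binding domain and repress SF-1, LRH-1 and other receptors. All 4 were called higher in Fyn-KO and had no count in any WT library. Nr5a1 lies at chr2:38692656-38714542, Nr5a2 at chr1:136842571-136960448, Nr0b1 at chrX:86191764-86195947 and Nr0b2 at chr4:133553376-133556536 in GENCODE M21 (GRCm38). The promoters of 3 of them are shown because these genes were read in every Fyn-KO library and in no WT library, and because SF-1 and LRH-1 bind elements of the AGGTCA type. RefSeq (GRCm38.p6) gives 300-base windows, from 250 bases before the transcription start to 50 after, for 42 of the 46 members, with Nr5a1, Nr3c1, Thra and Hnf4g not among them. Nr5a2 has 2 windows, of which the first listed is shown, and the others 1 each. Capitals mark the core receptor element AGGTCA in Nr5a2 (chr1:136960399-136960698, minus strand, bases 187 to 192 of the window) and Nr0b1 (chrX:86191525-86191824, plus strand, bases 125 to 130), and the E-box CACGTG in Nr0b2 (chr4:133553126-133553425, plus strand, bases 56 to 61).
Nr5a2: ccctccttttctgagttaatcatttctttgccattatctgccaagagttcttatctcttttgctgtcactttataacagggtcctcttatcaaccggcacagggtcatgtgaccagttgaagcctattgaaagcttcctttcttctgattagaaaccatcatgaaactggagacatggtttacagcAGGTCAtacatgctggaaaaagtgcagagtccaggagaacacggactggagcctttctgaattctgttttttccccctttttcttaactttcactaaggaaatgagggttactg
Nr0b1: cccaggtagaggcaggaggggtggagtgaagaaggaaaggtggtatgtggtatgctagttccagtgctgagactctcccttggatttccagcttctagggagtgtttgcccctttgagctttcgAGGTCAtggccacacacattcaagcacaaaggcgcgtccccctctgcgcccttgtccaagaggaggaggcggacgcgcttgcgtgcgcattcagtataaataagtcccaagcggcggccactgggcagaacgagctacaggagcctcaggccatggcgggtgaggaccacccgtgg
Nr0b2: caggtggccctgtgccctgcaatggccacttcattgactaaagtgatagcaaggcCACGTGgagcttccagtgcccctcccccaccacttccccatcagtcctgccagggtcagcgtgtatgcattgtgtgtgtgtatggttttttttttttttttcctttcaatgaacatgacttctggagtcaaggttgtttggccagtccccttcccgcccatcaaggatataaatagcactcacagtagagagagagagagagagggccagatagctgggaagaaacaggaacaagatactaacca
Searched on either strand, AGGTCA was in 12 of the 63 windows of the members (19.0%), in 11 genes, and in 16.3% of all 32851 RefSeq promoters. The longer form bound by SF-1 and LRH-1, AAGGTCA, which contains AGGTCA, was in 3 of the 63 (4.76%) and in 4.72% of all. Those windows belong to Nr6a1, Rxra and Rxrg, so none of the windows shown holds the longer form. The Nr0b2 window holds no AGGTCA either. The E-box was in 6 of the 63 (9.52%) and in 7.15% of all, and TGACGTCA, the cyclic AMP response element, in 2 (3.17%) and in 1.79%. A match says only that these letters are in the window.

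Nr5a2 was counted at 182, 240.4, 207 and 177 CPM across the Fyn-KO libraries, a mean of 202 ± 28.9 CPM (SD, n = 4). The 4 libraries lay close together and far from the WT libraries, in which a floor of 3 counts corresponds to at most 0.252 CPM. Against that floor Nr5a2 was at least 801-fold higher (edgeR quasi-likelihood test, Benjamini-Hochberg adjusted p = 0.00775). Floors and intervals here cover counting error only. Nr5a1 was at 116, 129, 129 and 108 CPM across Fyn-KO, a mean of 121 ± 10.6 CPM (SD, n = 4). It was at least 479-fold higher than the WT floor (edgeR quasi-likelihood test, Benjamini-Hochberg adjusted p = 0.0121). Across the Fyn-KO libraries, Nr5a1 made up 38.8, 35.0, 38.4 and 37.8% of the 3' tags of the pair, so the ratio of the 2 genes hardly varied between libraries.

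The DAX1 gene Nr0b1 was lower and more variable, at 5.33, 4.23, 0.876 and 3.79 CPM across Fyn-KO. It was at least 14.1-fold higher (edgeR quasi-likelihood test, Benjamini-Hochberg adjusted p = 0.0124). The SHP gene Nr0b2 was at 12.4, 4.14, 1.53 and 4.34 CPM and at least 22.2-fold higher (edgeR quasi-likelihood test, Benjamini-Hochberg adjusted p = 0.0129). For both genes Fyn-KO replicate 3 was the lowest library. That library also had the lowest sum of steroid tissue markers (22971 CPM against 25263 to 25995 CPM) and the highest sum of oligodendrocyte lineage markers (862 CPM against 153 to 397 CPM) of the Fyn-KO group. Single steroid markers went both ways there. Among others, Hsd3b1 (4119 CPM) and Star (3962 CPM) were lowest in it, but Cyp11a1 (13175 CPM) and Akr1b7 (832 CPM) were highest. Nr5a1 and Nr5a2 were not lowest in that library. The part of cell content in Nr0b1 and Nr0b2 was not tested.

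Known targets of SF-1 and LRH-1 were read next. Of 18 listed genes, 14 were tested, 8 were higher, 0 lower and 6 did not pass, with a median log2 fold change of 8.83, or 7.81 with genes absent from WT set to their ratio against the floor, against 0.45 over all tested genes, of which 19% were higher and 3.51% lower. Of the 14, 7 stayed below 10 counts in all 3 WT libraries, so they were tested only through Fyn-KO, and all 7 were among the 8 higher. Of the other 7, Inha, a subunit of inhibin, was higher, at 0, 7.15 and 0 CPM across WT and 651, 603, 432 and 676 CPM across Fyn-KO (edgeR quasi-likelihood test, Benjamini-Hochberg adjusted p = 0.0212). Without WT replicate 2, which held all its WT counts, the adjusted p was 0.00185 in the same test. With WT counts in that library alone, Inha too needed Fyn-KO to pass the filter. At an unadjusted p under 0.05, 13 were higher and 0 lower in edgeR, and DESeq2 called 0 lower. Limma-voom with quality weights called 0 of the list higher and 0 lower, so none of the 8 edgeR calls passed there. Akr1b7, an aldose reductase of steroid-producing cells, was at 815, 660.0, 832 and 669.6 CPM across Fyn-KO with no WT count (edgeR quasi-likelihood test, Benjamini-Hochberg adjusted p = 0.000808). Prlr, the prolactin receptor, was at 1958, 1916, 1556 and 1613 CPM across Fyn-KO and had 3 counts over the WT libraries (edgeR quasi-likelihood test, Benjamini-Hochberg adjusted p = 0.000279). Mrap, which escorts the corticotropin receptor to the cell surface, was at 289, 275, 248 and 297 CPM with no WT count (edgeR quasi-likelihood test, Benjamini-Hochberg adjusted p = 0.00428). These genes were uniformly present in one group and all but uncounted in the other.

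Among the genes of steroid synthesis, Cyp17a1 and Cyp11b1, enzymes of later steps, had no WT count, were at 14.4 CPM or more and at 67.3 CPM or more in every Fyn-KO library, and were higher (edgeR quasi-likelihood test, Benjamini-Hochberg adjusted p = 0.0121 for each), though in neither case under limma-voom with quality weights (adjusted p = 0.386 and 0.276). Star, Cyp11a1 and Hsd3b1, which act earlier, were high in every Fyn-KO library but did not pass, and WT replicate 3 also held reads of them. Star, which moves cholesterol into mitochondria, was at 0, 0 and 37.4 CPM across WT and 4853, 4917, 3962 and 4672 CPM across Fyn-KO (edgeR quasi-likelihood test, Benjamini-Hochberg adjusted p = 0.0559). Cyp11a1, which makes pregnenolone from cholesterol, was at 4.46, 0 and 144 CPM across WT and 11509, 11689, 13175 and 11562 CPM across Fyn-KO (edgeR quasi-likelihood test, Benjamini-Hochberg adjusted p = 0.0529). Without WT replicate 3 the adjusted p was 3.26e-05 for Star and 0.0101 for Cyp11a1, without WT replicate 2 it was 0.0484 and 0.0136, and with library sizes alone 0.0470 and 0.0393, all in the same edgeR test, while DESeq2 gave 0.000624 and 0.000217. WT replicate 3 thus reached 0.814% of the Fyn-KO mean for Star, 1.20% for Cyp11a1 and 1.60% for Hsd3b1, the enzyme that forms progesterone. A floor of 3 counts in that library corresponds to 0.209% of the Fyn-KO mean for Nr5a1 and 0.125% for Nr5a2, both of which had no count there. The steroid marker list shares Star, Cyp11a1, Hsd3b1, Akr1b7, Mrap, Lhcgr, Inha and other genes with this target list, so these lists are not separate readings. The part of steroid-producing cells in the receptor calls was not tested.

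**Figure D2:**
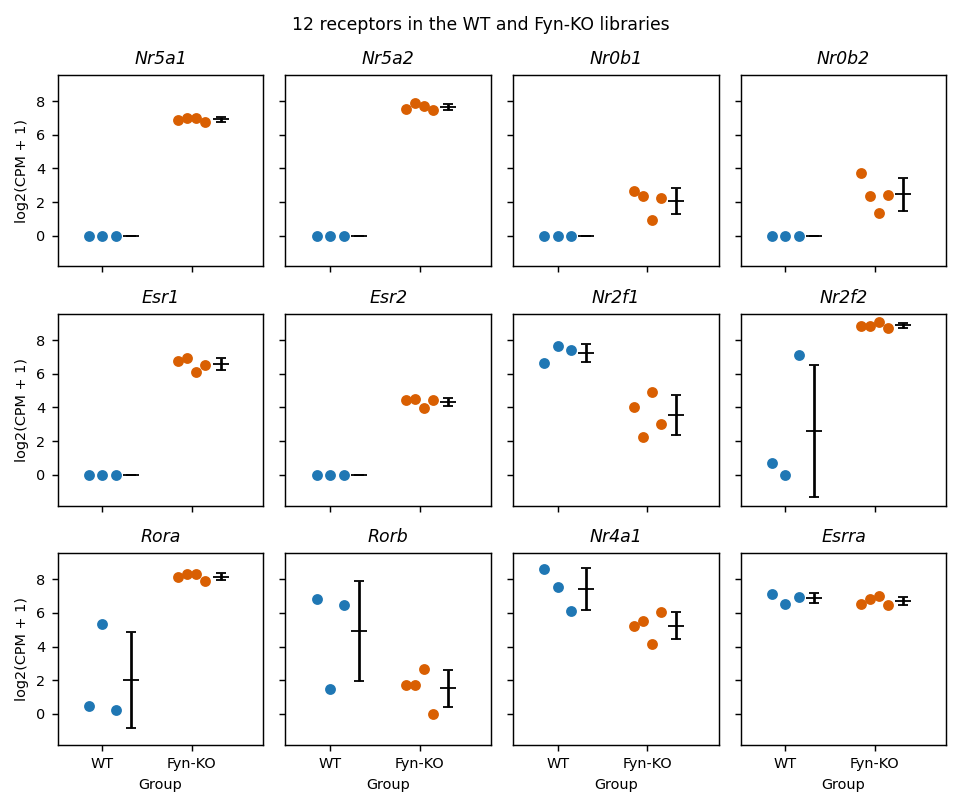
Levels of 12 nuclear receptor genes as log2(CPM + 1) in each of the 3 WT libraries (blue) and 4 Fyn-KO libraries (orange), with bars for the mean and SD of the log values. The first 6 genes had no count in WT, Nr2f1 and Nr4a1 were lower in Fyn-KO, Nr2f2, Rora and Rorb were split among the WT libraries, and the groups overlapped for Esrra.

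Of the steroid hormone receptors, the estrogen receptor genes were higher in Fyn-KO and the others did not pass or were not tested. Esr1, which encodes estrogen receptor alpha, lies at chr10:4611593-5005614. No WT library had a count, and the Fyn-KO libraries held 109, 120.4, 67.1 and 89.8 CPM, with Fyn-KO replicate 3 the lowest. Against the WT floor Esr1 was at least 384-fold higher (edgeR quasi-likelihood test, Benjamini-Hochberg adjusted p = 0.0121). Esr2, for estrogen receptor beta, had no WT count and 20.6, 21.4, 14.8 and 20.9 CPM across Fyn-KO, at least 77.1-fold higher (edgeR quasi-likelihood test, Benjamini-Hochberg adjusted p = 0.0121). Esr1 made up 84.1, 84.9, 82.0 and 81.1% of the tags of the estrogen receptor pair, again nearly constant. The progesterone receptor gene Pgr had 0, 3.85, 3.94 and 0 CPM across Fyn-KO and no WT count, and was not tested.

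Nr3c1, the glucocorticoid receptor, was at 0.0783, 45.4 and 0.504 CPM across WT and 44.8, 58.3, 48.4 and 36.2 CPM across Fyn-KO. WT replicate 2 lay within the Fyn-KO range and the other WT libraries near the floor, so the groups overlapped (edgeR quasi-likelihood test, Benjamini-Hochberg adjusted p = 0.57). Without WT replicate 2, Nr3c1 passed (adjusted p = 0.00818 in the same edgeR test), tested then only through Fyn-KO. The mineralocorticoid receptor gene Nr3c2 had no count in any library.

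Targets of these receptors were read beside the 19% of all tested genes called higher and the 3.51% called lower. Of 12 glucocorticoid receptor targets, all tested, 2 were higher, 0 lower and 10 did not pass, with a median log2 fold change of 0.47, close to that of all genes; at an unadjusted p under 0.05 edgeR had 3 higher and 0 lower, and DESeq2 called 0 lower. Dusp1, a phosphatase of MAP kinases, was at 0.0783, 0 and 0.336 CPM across WT and 41.6, 58.6, 22.8 and 54.8 CPM across Fyn-KO (edgeR quasi-likelihood test, Benjamini-Hochberg adjusted p = 0.0186). Errfi1, an inhibitor of the EGF receptor, had 3 WT counts and 26.6, 15, 26.4 and 3.56 CPM across Fyn-KO (edgeR quasi-likelihood test, Benjamini-Hochberg adjusted p = 0.0431). In the same edgeR test, Dusp1 was lost without Fyn-KO replicate 1 (adjusted p = 0.0547), 2 (0.0604) or 4 (0.0563), and Errfi1 without WT replicate 1 (0.0550), without any of the Fyn-KO libraries (0.0719 to 0.0913) and with no filter (0.0597). Fkbp5, a chaperone partner and a common readout of the receptor, was at 46.5, 0.977 and 325 CPM across WT and 414, 404, 220.2 and 392 CPM across Fyn-KO and did not pass (edgeR quasi-likelihood test, Benjamini-Hochberg adjusted p = 0.675). Of 10 estrogen and progesterone receptor targets, 9 were tested, 3 were higher and 0 lower, with a median log2 fold change of 3.69; edgeR had 0 lower at an unadjusted p under 0.05, and DESeq2 called 0 lower. The 3 were Ihh, Myc and Rasd1, each with under 10 counts in each WT library, so tested only through Fyn-KO, as Dusp1 and Errfi1 were, and at 0.657 to 15.6 CPM in Fyn-KO. Greb1, a coregulator induced by estrogen, was at 0.0783, 57.2 and 3.02 CPM across WT and 319, 354, 391 and 367 CPM across Fyn-KO (edgeR quasi-likelihood test, Benjamini-Hochberg adjusted p = 0.0836). Rasd1 was lost without WT replicate 1 (adjusted p = 0.0585), and Greb1 passed without WT replicate 1 (0.0331) or WT replicate 2 (0.0109) in edgeR and in DESeq2 (0.0106).

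The estrogen-related receptors are orphans that govern mitochondrial genes. Esrra was counted in all 7 libraries, at 138, 92 and 125 CPM across WT and 91, 114, 127 and 86.7 CPM across Fyn-KO. The groups overlapped, with means of 118 ± 23.5 (SD, n = 3) and 105 ± 19 CPM (SD, n = 4). Its log2 fold change was -0.28 (SE 0.56) (edgeR quasi-likelihood test, Benjamini-Hochberg adjusted p = 0.814). Esrra overlaps Trmt112 on the other strand by 73 bases, and the strand of counting is not stated, so reads at that end cannot be told apart. Esrrb was counted in Fyn-KO replicate 4 alone (0.334 CPM), and Esrrg in Fyn-KO replicates 3 and 4 (1.64 and 1.45 CPM), and neither was tested.

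The COUP transcription factors Nr2f1 and Nr2f2 are close paralogs that repress or activate genes in neural and mesenchymal development. Their values ran in opposite directions. Nr2f1 (chr13:78188973-78199757) was at 97.6, 201 and 173 CPM across WT, a mean of 157 ± 53.6 CPM (SD, n = 3), while the Fyn-KO libraries held 15.2, 3.66, 29.6 and 7.02 CPM, a mean of 13.9 ± 11.5 CPM (SD, n = 4). Every WT library lay above every Fyn-KO library, and WT was 11.4-fold higher in mean CPM. The fitted log2 fold change was -3.54 (SE 0.94) (edgeR quasi-likelihood test, Benjamini-Hochberg adjusted p = 0.0286). It also passed in limma-voom with quality weights (Benjamini-Hochberg adjusted p = 0.0260), and it did not pass in edgeR without Fyn-KO replicate 1 (adjusted p = 0.0812), 2 (0.0623) or 4 (0.0789). The Fyn-KO library with the most Nr2f1, replicate 3, was also the one with the highest sum of oligodendrocyte lineage markers. The part of those cells was not tested. A promoter window of Nr2f1 (chr13:78198824-78199123, minus strand), the first of its 2 in the table, is shown as that of the COUP factor that fell; none of the 4 motifs above was in it.
Nr2f1: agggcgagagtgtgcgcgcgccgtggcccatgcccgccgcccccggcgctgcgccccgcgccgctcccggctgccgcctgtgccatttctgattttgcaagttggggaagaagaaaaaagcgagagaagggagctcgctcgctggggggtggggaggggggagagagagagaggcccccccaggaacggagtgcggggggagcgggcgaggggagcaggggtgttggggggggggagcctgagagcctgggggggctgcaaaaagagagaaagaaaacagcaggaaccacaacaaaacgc

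Nr2f2 (chr7:70351944-70366735) was at 0.626, 0 and 137 CPM across WT and 465, 467, 537 and 420.2 CPM across Fyn-KO. All Fyn-KO libraries lay above all WT libraries, and WT replicate 3 stood apart from the other 2. The means differed by 10.3-fold, but the test did not pass (log2 fold change 2.95 (SE 2.08), edgeR quasi-likelihood test, Benjamini-Hochberg adjusted p = 0.413). Without WT replicate 3 it passed (log2 fold change 10.60, adjusted p = 0.00778 in the same edgeR test), tested then only through Fyn-KO. That library also had the highest sums of endothelial markers (828 CPM against 1.10 and 20 CPM in WT and 358 to 377 CPM in Fyn-KO) and, within WT, of mural and fibroblast markers (899 CPM against 41.5 and 131 CPM in WT and 1542 to 2167 CPM in Fyn-KO), and all 6 endothelial markers were counted in it. WT replicate 3 reached 29.0% of the Fyn-KO mean of Nr2f2.

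As a share of the tags of the pair, Nr2f1 made up 99.4, 100 and 55.8% in the WT libraries and 3.18, 0.776, 5.22 and 1.64% in the Fyn-KO libraries. The group ranges were far apart on this scale, and counting error was small, with 95% Wilson intervals of 54.2 to 57.4% in WT replicate 3 and 4.64 to 5.86% in Fyn-KO replicate 3. Both genes overlap a transcript on the other strand, A830082K12Rik for Nr2f1 and B130024G19Rik for Nr2f2, whose reads cannot be told apart without strand.

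**Figure D3:**
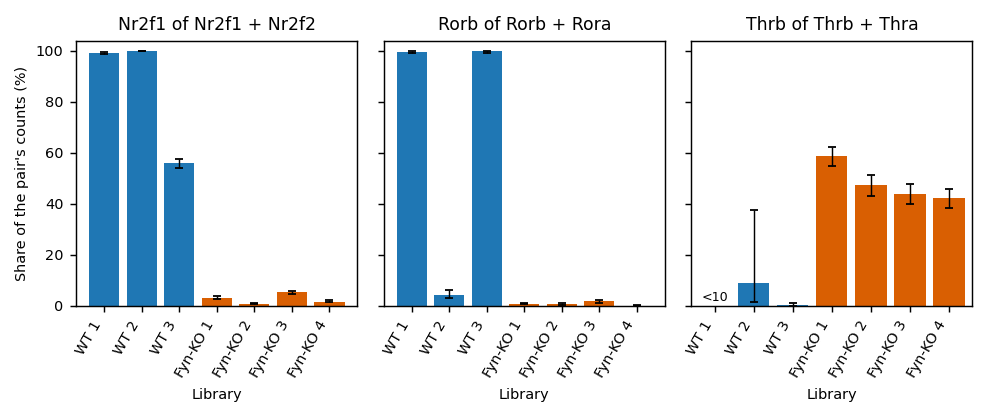
Share of a receptor pair's 3' tag counts taken by Nr2f1 (with Nr2f2), Rorb (with Rora) and Thrb (with Thra) in each library, as bars with 95% Wilson intervals. Nr2f1 took 55.8% or more in WT and 5.22% or less in Fyn-KO, Rorb split the WT libraries, and Thrb took 42.1 to 58.7% in Fyn-KO; a pair with under 10 counts is marked and has no bar.

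Of the testicular receptors and the germ cell nuclear factor, orphans studied mostly in germ and stem cells, Nr6a1 and Nr2c1 were higher in Fyn-KO. Nr6a1 had 1 WT count and 37.5, 35.3, 11.3 and 14 CPM across Fyn-KO, a ratio of pooled CPM of 1027 (95% interval 184 to 40613) (edgeR quasi-likelihood test, Benjamini-Hochberg adjusted p = 0.0121). Nr2c1 had 1 WT count and 24, 5.39, 0.219 and 11.5 CPM across Fyn-KO, a ratio of 418 (95% interval 74.6 to 16562) (edgeR quasi-likelihood test, Benjamini-Hochberg adjusted p = 0.029). Fyn-KO replicate 3 had 2 counts of Nr2c1, near WT. Nr2c1 did not pass without WT replicate 1 (adjusted p = 0.0510) or WT replicate 3 (adjusted p = 0.0691) in the same edgeR test.

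Nr2c2, the paralog of Nr2c1, was counted in all libraries, at 125, 84.5 and 356 CPM across WT and 107, 105, 146 and 84.3 CPM across Fyn-KO. The groups overlapped and WT replicate 3 was the highest (edgeR quasi-likelihood test, Benjamini-Hochberg adjusted p = 0.409). Nr2f6, a repressor of T cell cytokine genes, was at 0, 32.4 and 0.0839 CPM across WT and 28.6, 32.6, 21.3 and 20.5 CPM across Fyn-KO, with WT replicate 2 inside the Fyn-KO range (edgeR quasi-likelihood test, Benjamini-Hochberg adjusted p = 0.709). It passed without WT replicate 2 (adjusted p = 0.00519 in the same edgeR test), tested then only through Fyn-KO. Nr2f6 overlaps Ocel1, and Nr2c2 overlaps Mrps25, on the other strand. Nr2e1 (TLX), which keeps adult neural stem cells dividing, and Nr2e3, a photoreceptor factor, had no count in any library.

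The NR4A receptors are immediate early genes, induced within minutes to hours of a stimulus. Nr4a1 (chr15:101254269-101274795) was at 386, 186 and 69.5 CPM across WT and 36.8, 44.1, 17 and 65.4 CPM across Fyn-KO. The groups did not overlap, though only narrowly, since WT replicate 3 exceeded Fyn-KO replicate 4 by a small margin. WT was 5.24-fold higher in mean CPM, with a log2 fold change of -2.41 (SE 0.73) (edgeR quasi-likelihood test, Benjamini-Hochberg adjusted p = 0.049). The call was lost in edgeR without WT replicate 1 (log2 fold change -1.63, adjusted p = 0.121) and without Fyn-KO replicate 1 (0.130), 2 (0.117), 3 (0.119) or 4 (0.0694), and with library sizes alone (0.0546) or no filter on low counts (0.0635), and limma-voom with quality weights gave an adjusted p of 0.108. Nr4a2, which maintains dopamine neurons, was at 0, 21.3 and 0.0839 CPM across WT and 16.6, 28.4, 15 and 16.7 CPM across Fyn-KO (edgeR quasi-likelihood test, Benjamini-Hochberg adjusted p = 0.664). Nr4a3 was at 0, 45.3 and 0 CPM across WT and 0, 5.77, 0.109 and 3.68 CPM across Fyn-KO (edgeR quasi-likelihood test, Benjamini-Hochberg adjusted p = 0.62). For both, WT replicate 2 held nearly all WT reads, and Nr4a2 passed without it (adjusted p = 0.00517), tested then only through Fyn-KO.

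The retinoid receptors comprise the retinoic acid receptors and the retinoid X receptors, the latter the shared dimer partners of many other members. Rxra was the only one of the 14 higher receptors with reads in every library, at 0.157, 0.0611 and 0.168 CPM across WT and 28.1, 32.7, 30.9 and 24 CPM across Fyn-KO. The WT values were 1 or 2 counts each. Means were 225-fold apart, with a log2 fold change of 7.57 (SE 1.40) (edgeR quasi-likelihood test, Benjamini-Hochberg adjusted p = 0.0121). Rara had 1 WT count and 11.5, 10.003, 18.3 and 31.9 CPM across Fyn-KO, a ratio of 721 (95% interval 129 to 28502) (edgeR quasi-likelihood test, Benjamini-Hochberg adjusted p = 0.0131). The other members depended on WT replicate 2. Rarb was at 0, 38.8 and 0.0839 CPM across WT and 5.33, 1.15, 4.93 and 9.91 CPM across Fyn-KO (edgeR quasi-likelihood test, Benjamini-Hochberg adjusted p = 0.811). Rarg was at 0.313, 78.4 and 0.168 and 23.4, 14.5, 22.9 and 29.7 CPM (edgeR quasi-likelihood test, Benjamini-Hochberg adjusted p = 0.99). Rxrb was at 0.0783, 31.6 and 0 and 59, 42.8, 44.1 and 41.1 CPM, with Fyn-KO above WT throughout (edgeR quasi-likelihood test, Benjamini-Hochberg adjusted p = 0.525). Without WT replicate 2, Rarb (adjusted p = 0.0272), Rarg (0.00455) and Rxrb (0.00457) passed as higher in the same edgeR test. Each had under 10 counts in the remaining WT libraries, so its direction there followed from the filter. Rarb overlaps Top2b on the other strand. Rxrg was counted in WT replicates 2 and 3 (1.65 and 0.0839 CPM) and Fyn-KO replicate 4 (1.11 CPM) and was not tested.

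Of 12 retinoic acid receptor targets, 8 were tested, 3 were higher and 0 lower, where 19% of all tested genes were higher and 3.51% lower. The median log2 fold change of the 8 was 1.60. At an unadjusted p under 0.05 edgeR had 0 lower, and DESeq2 called 1 lower. All 3 that were higher had under 10 counts in each WT library, so they were tested only through Fyn-KO. Of the 5 others, 0 were higher and 0 lower. Dhrs3, which returns retinal to retinol, had 1 WT count and 63.1, 60.7, 60.6 and 71.6 CPM across Fyn-KO (edgeR quasi-likelihood test, Benjamini-Hochberg adjusted p = 0.0121). Crabp2, which carries retinoic acid to the receptor, was at 5.43, 4.23, 3.83 and 4.12 CPM with no WT count (edgeR quasi-likelihood test, Benjamini-Hochberg adjusted p = 0.0121). Stra6, the receptor for retinol-binding protein, was at 12.1, 4.81, 1.97 and 4.79 CPM with no WT count (edgeR quasi-likelihood test, Benjamini-Hochberg adjusted p = 0.0123). Cyp26b1, which degrades retinoic acid, was at 14.9, 61.9 and 76.6 CPM across WT and 6.39, 17.1, 7.99 and 11.9 CPM across Fyn-KO and did not pass (edgeR quasi-likelihood test, Benjamini-Hochberg adjusted p = 0.156). Cyp26b1 passed as lower without WT replicate 1 (adjusted p = 0.0372 in the same test) and in DESeq2 (adjusted p = 0.0328).

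Thyroid hormone receptors carry the hormone signal that matures oligodendrocytes. Thrb had 3 WT counts and 41.1, 26, 29.992 and 32.5 CPM across Fyn-KO, a ratio of 441 (95% interval 151 to 2143) (edgeR quasi-likelihood test, Benjamini-Hochberg adjusted p = 0.0124). Thra was at 0.235, 0.611 and 69.2 CPM across WT and 29, 29, 38.4 and 44.7 CPM across Fyn-KO. WT replicate 3 held the highest value of all 7 and the other WT libraries were near the floor (edgeR quasi-likelihood test, Benjamini-Hochberg adjusted p = 0.967). Without WT replicate 3, Thra passed as higher (adjusted p = 0.00801 in the same edgeR test). The remaining WT libraries held 3 and 10 counts of it, so it was tested then only through Fyn-KO. Thrb made up 58.7, 47.2, 43.8 and 42.1% of the tags of the pair in Fyn-KO and 0.242% in WT replicate 3, the only WT library with more than 11 counts of the pair. Thra shares 1075 bases at its end with Nr1d1 on the other strand, and 3' tags of these genes cannot be told apart without strand. The vitamin D receptor gene Vdr had no WT count and 7.03, 3.66, 7.77 and 0 CPM across Fyn-KO (edgeR quasi-likelihood test, Benjamini-Hochberg adjusted p = 0.0543). It passed without Fyn-KO replicate 4, which had no count (adjusted p = 0.0201).

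Of 9 targets of the thyroid hormone and vitamin D receptors, 5 were tested, 1 was higher and 1 lower, with a median log2 fold change of -0.44. Over all tested genes, 19% were higher and 3.51% lower. The 1 that was higher had under 10 counts in each WT library, so it was tested only through Fyn-KO. Of the 4 others, 0 were higher and 1 was lower. Thrsp, a lipogenic protein, had 1 WT count and 7.35, 8.27, 13.4 and 15.9 CPM across Fyn-KO (edgeR quasi-likelihood test, Benjamini-Hochberg adjusted p = 0.0129). Mbp, myelin basic protein, was at 7954, 1095 and 8929 CPM across WT and 27.5, 105, 208 and 173 CPM across Fyn-KO, with the groups far apart (edgeR quasi-likelihood test, Benjamini-Hochberg adjusted p = 0.0121). Mbp is also a gene of oligodendrocytes, whose lineage markers were lower in Fyn-KO as given above, and their part was not tested.

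The clock receptors are the repressors REV-ERB alpha and beta (Nr1d1, Nr1d2) and the activators ROR alpha and beta (Rora, Rorb), which compete for the same elements in clock genes. None of the 4 passed in edgeR, where 1 was higher and 1 lower at an unadjusted p under 0.05, and DESeq2 called Rora higher and Rorb lower. Rora was at 0.391, 39.3 and 0.168 CPM across WT and 276, 317, 317 and 234 CPM across Fyn-KO. WT replicate 2 had intermediate reads and the other WT libraries had 5 and 2 counts, all below Fyn-KO. Means were 21.5-fold apart, with a log2 fold change of 4.69 (SE 1.70) (edgeR quasi-likelihood test, Benjamini-Hochberg adjusted p = 0.0832), and the adjusted p was 0.00357 without WT replicate 2. Rorb ran the other way, at 112, 1.77 and 88.4 CPM across WT and 2.24, 2.21, 5.36 and 0 CPM across Fyn-KO. WT replicates 1 and 3 were high and WT replicate 2 lay inside the Fyn-KO range. Its WT mean was 27.5-fold that of Fyn-KO, at a log2 fold change of -4.94 (SE 1.94) (edgeR quasi-likelihood test, Benjamini-Hochberg adjusted p = 0.109), and the adjusted p was 0.0355 without WT replicate 2. Rorb made up 99.7, 4.32 and 99.8% of the tags of the Rora and Rorb pair in WT and 0.806, 0.693, 1.66 and 0% in Fyn-KO. On this pair WT replicate 2 lay nearer to the Fyn-KO libraries than to the other WT libraries, whereas on Nr2f1 and Nr2f2 it did not.

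Nr1d1 was at 31.1, 19.7 and 0 CPM across WT and 60.9, 43.1, 82.3 and 50.9 CPM across Fyn-KO (edgeR quasi-likelihood test, Benjamini-Hochberg adjusted p = 0.534). Nr1d2 was at 0.0783, 33 and 0.168 CPM across WT and 76.3, 76.1, 53.7 and 89.9 CPM across Fyn-KO (edgeR quasi-likelihood test, Benjamini-Hochberg adjusted p = 0.338). For both, all Fyn-KO libraries lay above all WT libraries, and Nr1d2 passed without WT replicate 2 (adjusted p = 0.00455). Of 15 clock partners and targets, 14 were tested, 1 was higher and 0 lower, with a median log2 fold change of -0.05; edgeR at an unadjusted p under 0.05 gave the same counts and DESeq2 called 0 lower. The one higher was Per3, a period gene, with no WT count and 10.7, 22.5, 16 and 8.80 CPM across Fyn-KO (edgeR quasi-likelihood test, Benjamini-Hochberg adjusted p = 0.0121). Arntl, the partner of Clock, was at 0, 64.4 and 0 CPM across WT and 5.01, 9.14, 2.19 and 5.79 CPM across Fyn-KO, with all WT reads in replicate 2 (edgeR quasi-likelihood test, Benjamini-Hochberg adjusted p = 0.697); without that library it was higher in Fyn-KO (adjusted p = 0.00864). The labels give no time of day for the sorts.

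Of the lipid, bile acid and xenobiotic sensors, Pparg, Nr1h3 and Nr1h4 were higher in Fyn-KO. Pparg, the adipocyte and macrophage regulator, had no WT count and 10.1, 13.5, 9.09 and 15.9 CPM across Fyn-KO, at least 48.2-fold higher (edgeR quasi-likelihood test, Benjamini-Hochberg adjusted p = 0.0121). Nr1h3, the oxysterol receptor LXR alpha, had 1 WT count and 20.6, 19.8, 1.31 and 16.5 CPM, a ratio of 606 (95% interval 108 to 23966) (edgeR quasi-likelihood test, Benjamini-Hochberg adjusted p = 0.0189). Nr1h4, the bile acid receptor FXR, had no WT count and 11.5, 11.2, 3.17 and 1.23 CPM, at least 26.9-fold higher (edgeR quasi-likelihood test, Benjamini-Hochberg adjusted p = 0.0146). Fyn-KO replicate 3 was the lowest library for Pparg and Nr1h3. The 10 macrophage and microglia markers summed to 334, 174 and 468 CPM in WT and to 289 to 429 CPM in Fyn-KO, with 7 or 8 counted in WT and 9 in Fyn-KO. Cx3cr1, the fractalkine receptor, had 1 WT count and 46.9 to 75.2 CPM in Fyn-KO, and Tyrobp, a signalling adaptor, had 6 WT counts and 18.5 to 20.2 CPM (edgeR quasi-likelihood test, Benjamini-Hochberg adjusted p = 0.0121 and 0.0244). Tyrobp was lost without Fyn-KO replicate 1 (adjusted p = 0.0625), 2 (0.0630) or 4 (0.0580). Cx3cr1 and Tyrobp had under 10 counts in each WT library, so they were tested only through Fyn-KO. Of the other 8, 7 did not pass and P2ry12, a microglial receptor counted in Fyn-KO replicate 1 alone, was not tested. Of those that did not pass, Csf1r, Cd68, Aif1, Itgam and C1qb had lower means in Fyn-KO, and C1qa and Ptprc higher ones. The part of macrophages and microglia in these receptor values was not tested.

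The other sensors did not pass. Ppara, which switches on fatty acid oxidation, was at 0, 15.3 and 0.168 CPM across WT and 27.7, 21.9, 31.6 and 30.2 CPM across Fyn-KO, with Fyn-KO above WT throughout (edgeR quasi-likelihood test, Benjamini-Hochberg adjusted p = 0.433). It passed without WT replicate 2 (adjusted p = 0.00848), tested then only through Fyn-KO. Ppard, expressed in many tissues, was at 51.5, 3.36 and 75.6 CPM across WT and 8.74, 13.1, 5.04 and 7.35 CPM across Fyn-KO. Its WT replicate 2 was below all Fyn-KO libraries and the others above them (edgeR quasi-likelihood test, Benjamini-Hochberg adjusted p = 0.2), and without WT replicate 2 it passed as lower (adjusted p = 0.0150). Nr1h2, LXR beta, was at 223, 83.5 and 0.168 CPM across WT and 45, 35, 26.1 and 50.7 CPM across Fyn-KO, with WT replicate 3 near the floor (edgeR quasi-likelihood test, Benjamini-Hochberg adjusted p = 0.628). Nr1i2, the pregnane X receptor, was counted in Fyn-KO replicate 2 alone (2.12 CPM), and Hnf4a, a master factor of hepatocytes, had 1 count, in WT replicate 3. Nr1i3, a liver xenobiotic sensor, and Hnf4g had no count in any library.

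Of 11 LXR targets, 9 were tested, all with 10 counts or more in a WT library, and 2 were higher and 1 lower, where 1.52% of all genes of that kind were higher and 4.57% lower, with a median log2 fold change of 1.07. Abca1, the cholesterol exporter, was at 0.861, 48.9 and 74.3 CPM across WT and 977, 975, 513 and 922 CPM across Fyn-KO (edgeR quasi-likelihood test, Benjamini-Hochberg adjusted p = 0.046). Apoe, the lipid carrier of brain and macrophages, was at 759, 832 and 216 CPM across WT and 1253, 1325, 1349 and 1219 CPM across Fyn-KO (edgeR quasi-likelihood test, Benjamini-Hochberg adjusted p = 0.0494). Fasn, fatty acid synthase, was lower, at 607, 408 and 560.0 CPM across WT and 195, 179, 194 and 189 CPM across Fyn-KO (edgeR quasi-likelihood test, Benjamini-Hochberg adjusted p = 0.0158). The groups did not overlap for any of these. In the same edgeR test, however, Abca1 was lost without WT replicate 2 (adjusted p = 0.0967) or any Fyn-KO library (0.0654 to 0.0845), Apoe without any Fyn-KO library (0.101 to 0.115), and Fasn without Fyn-KO replicate 2 (0.0521). Apoe was also lost with other size factors (0.0564 with RLE factors, 0.110 with library sizes alone), with other filters (0.0602 and 0.0640) and in DESeq2 (0.242). Of 12 PPAR targets, 10 were tested, 2 were higher and 1 lower, where 19% of all tested genes were higher and 3.51% lower. The median log2 fold change of the 10 was 4.14. Cpt1a, which admits fatty acids to mitochondria, was at 16.1, 2.75 and 0.168 CPM across WT and 219, 206, 257 and 180.2 CPM across Fyn-KO (edgeR quasi-likelihood test, Benjamini-Hochberg adjusted p = 0.0294). Angptl4, an inhibitor of lipoprotein lipase, was at 0, 0.794 and 0.168 CPM across WT and 95.3, 94.9, 55.9 and 114 CPM across Fyn-KO (edgeR quasi-likelihood test, Benjamini-Hochberg adjusted p = 0.0122). Cd36, a fatty acid importer, was lower, at 187, 19.5 and 326 CPM across WT and 6.18, 3.94, 8.87 and 7.46 CPM across Fyn-KO (edgeR quasi-likelihood test, Benjamini-Hochberg adjusted p = 0.0134). Cpt1a was lost without WT replicate 2 (adjusted p = 0.0585) or any Fyn-KO library (0.0545 to 0.0614).

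**Figure D4:**
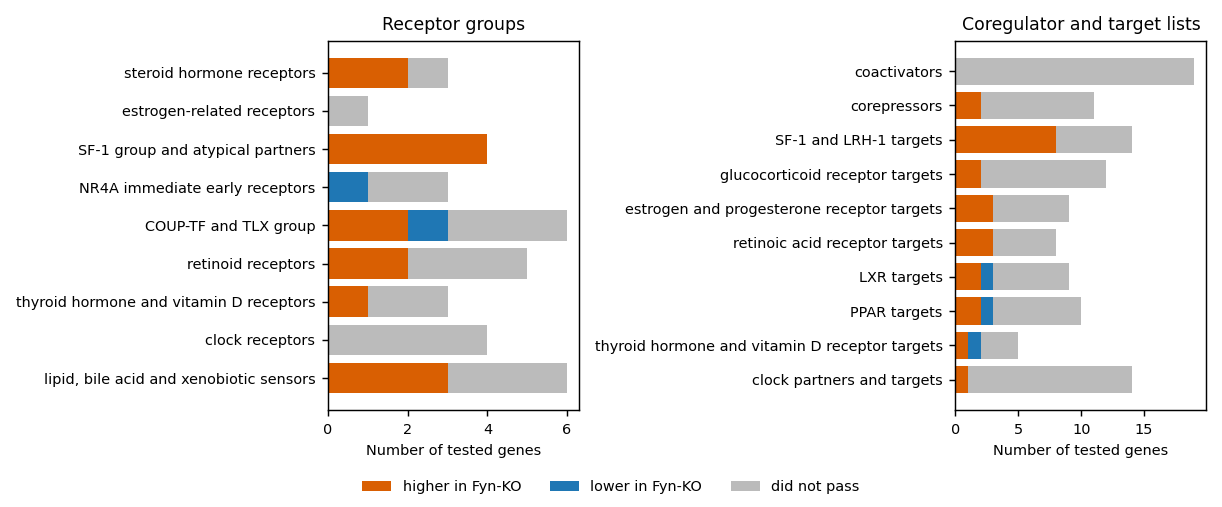
Number of tested genes higher (orange), lower (blue) or not passing (grey) in Fyn-KO against WT by edgeR at an adjusted p of 0.05, for the 9 receptor groups (left) and 10 lists of coregulators and targets (right). All 4 genes of the SF-1 group were higher, none of the 19 coactivators passed, and 8 of 14 tested SF-1 and LRH-1 targets were higher.

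The coregulators that receptors share came next. All 30 were tested, 2 were higher and 0 lower in edgeR, where 19% of all tested genes were higher and 3.51% lower, with a median log2 fold change of 0.52 beside 0.45 over all tested genes. Of the 19 coactivators 0 were higher and 0 lower, where an unadjusted p under 0.05 gave 1 higher and 0 lower and DESeq2 called 1 higher and 0 lower. Of the 11 corepressors 2 were higher and 0 lower, where an unadjusted p under 0.05 gave 2 higher and 1 lower and DESeq2 called 0 lower. Cops2, also known as Alien, was at 1.49, 0 and 0.168 CPM across WT and 89.9, 70.6, 73.2 and 48.5 CPM across Fyn-KO (edgeR quasi-likelihood test, Benjamini-Hochberg adjusted p = 0.0323). Tbl1x, a subunit of the corepressor complex, had 2 WT counts and 38.7, 38.2, 26.1 and 21.8 CPM across Fyn-KO (edgeR quasi-likelihood test, Benjamini-Hochberg adjusted p = 0.0178). Cops2 was lost without WT replicate 3 (adjusted p = 0.0534) or any Fyn-KO library (0.0687 to 0.0884), and Tbl1x without Fyn-KO replicate 1 (0.0532) or 2 (0.0538). Its scaffold Ncor1 was at 425, 639 and 198 CPM across WT and 469, 398, 417 and 432 CPM across Fyn-KO, with the Fyn-KO libraries inside the WT range (edgeR quasi-likelihood test, Benjamini-Hochberg adjusted p = 0.933). Over all 97 listed targets, 79 were tested, 22 were higher, 3 lower and 54 did not pass, beside 19% higher and 3.51% lower over all tested genes. The median log2 fold change was 1.30. Of the 22, 17 stayed below 10 counts in all 3 WT libraries, so they were tested only through Fyn-KO. Among the 61 others, 5 were higher (Abca1, Angptl4, Apoe, Cpt1a and Inha) and 3 lower, where 1.52% of all genes of that kind were higher and 4.57% lower. A gene with 10 counts in only 1 WT library, such as Inha, still needed Fyn-KO to pass the filter. This split therefore does not remove the effect of the filter, and the 5 are not read as a result about targets. Among genes counted in both groups, 0 targets were higher.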

How the data were processed

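The authors deposited 1 count per gene and library, as whole numbers. Per the labels' protocols, RNA of sorted cells was made into QuantSeq 3' mRNA-seq libraries, and per the submitters' processing notes Bowtie2, bedtools and DESeq2 1.32.0 were used with mm10 (GRCm38). The sources used here do not give the strand of counting, or what was modified in the table that the authors call modified. The values carry no molecular identifiers and are read as counts of 3' tags.

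Columns were joined to samples by their labels. The name of the column called WT replicate 3 here matches labels of more than 1 WT sample, so the column was assigned to the WT group only.

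The filter filterByExpr (minimum count 10, minimum total 15; edgeR 4.0.16, R 4.3.3) left 13122 genes. After TMM scaling, a two-sided quasi-likelihood F test set Fyn-KO against WT, and p-values were adjusted over all tested genes by the Benjamini-Hochberg method, with 0.05 as the threshold. SEs are approximate: the fold change on the log2 scale divided by the root of F. The code was tested on simulated data. Against a group at no count, a fold was computed against 3 counts in its shallowest library. With 1 to 3 counts, the pooled ratio has an exact 95% interval. Fitted log2 fold changes of such genes depend on the prior count and are not printed as sizes of single genes in the main fit. They do enter the medians and some ranges over alternative fits.

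The alternatives tried were scaling by RLE factors or by library size alone, filtering by no minimum or by a minimum count of 50, testing only genes counted in both groups (10 counts in 2 WT and 3 Fyn-KO libraries), DESeq2 1.42.0, limma-voom with quality weights (limma 3.58.1), the replicate number as a block, and each library left out. All members are named, with Fyn, cell markers and, from each list of coregulators and targets, up to 3 genes of lowest p in each direction and those closest to the role described. Inha, Cyp17a1, Cyp11b1, Cx3cr1 and Tyrobp were named after their values were seen. The members and lists were chosen with earlier results of these data known. Positions are from GENCODE M21, promoters from RefSeq.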

Additional observations from a re-analysis of the deposited data

Results flagged for a closer look

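In 6 receptors, 1 of the 4 Fyn-KO libraries lay farther from the others than Dixon's limit for 4 samples allows. With normally distributed values, chance does this in about 1 in 20 groups. The share over all genes was not computed, so the 6 are not read as a result about receptors. Esr2 was low in Fyn-KO replicate 3, at 14.8 CPM against 20.6 to 21.4 CPM. Nr4a2 was high in Fyn-KO replicate 2, at 28.4 CPM against 15 to 16.7 CPM. Rxrb was high in Fyn-KO replicate 1, at 59.0 CPM against 41.1 to 44.1 CPM. Esrrb (0.334 CPM) and Rxrg (1.11 CPM) were counted in Fyn-KO replicate 4 alone of that group, and Nr1i2 (2.12 CPM) in Fyn-KO replicate 2 alone. A gene counted in a single library passes the limit whatever its value, so the rate does not apply to Esrrb, Rxrg and Nr1i2. Esr2 was called higher in Fyn-KO under each library left out. It had no WT count, so it was tested only through Fyn-KO there, and its direction followed from the filter. Esr2 did not pass under limma-voom with quality weights (adjusted p = 0.306) or with the replicate block in edgeR (adjusted p = 0.206). Groups of 3, such as WT, were not examined in this way.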

How the results depend on the processing

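The count of receptors higher in Fyn-KO, 14, became 0 among genes counted in both groups (9 receptors tested, with 0 higher and 3 lower at an unadjusted p under 0.05), 0 under limma-voom with quality weights (6 higher at an unadjusted p under 0.05), 5 with the replicate block (Esr1, Nr5a1 and Nr5a2 of the 14, and Nr2f2 and Rora, adjusted p = 6.82e-07 and 0.000197, which were not among them), and 12 to 23 when a library was left out, the highest without WT replicate 2. The 2 lower became 1 with library sizes alone, 1 with no filter, 0 among genes counted in both groups, 1 under limma-voom, 0 with the replicate block and 0 to 4 with a library left out. Coregulators higher (2) became 0 in genes counted in both groups, under limma-voom and with the block, and 0 to 9 with a library left out; lower (0) became 0 to 2. Targets higher (22) became 0 among genes counted in both groups, 2 under limma-voom, 19 with the block and 15 to 38 with a library left out; lower (3) became 1, 0, 1 and 2 to 5.

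With a library left out, some log2 fold changes that did not pass crossed 0: Nr4a3 ran from -3.002 to 7.53, Nr2c2 from -1.44 to 0.18, Rarb from -1.60 to 6.38, Rarg from -0.52 to 6.30, Thra from -0.40 to 6.52, Nr1h2 from -1.93 to 0.16, Arntl from -2.29 to 8.76 and Ncor1 from -0.16 to 0.29. Others crossed 0 for Rarg with library sizes alone (-0.22), for Esrra among genes counted in both groups (0.10), for Rarb (0.19), Nr1h2 (0.94), Arntl (0.59) and Ncor1 (-0.093) under limma-voom, and for Rarb (4.60) and Arntl (5.42) with the block. The cause was not tested. The upper ends for Nr4a3, Arntl and Rarb come from the fit without WT replicate 2. There WT had no count of Nr4a3 and Arntl and 1 of Rarb, so these ends depend on the prior count and are not sizes.

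The labels do not say that libraries with the same replicate number belong together. Same-numbered deviations correlated at -0.0227 to -0.0047, and 0 WT libraries correlated best with their own number. These few values cannot show that such libraries share nothing. WT replicate 3 received the number left over in its group, so the block rests partly on an assigned number. The median log2 fold change of all genes was 2.49 under limma-voom, 3.45 with the block, -0.21 among genes counted in both groups and 1.91 without WT replicate 2, against 0.45.

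Over all genes, edgeR called 2493 higher and 461 lower, DESeq2 3699 and 774, limma-voom 24 and 320, the block 188 and 135, genes counted in both groups 52 and 146, and edgeR without WT replicate 2 4585 and 839. Depth limits receptors with few WT counts, since Fyn-KO can be set against no WT level under the floor of 0.252 CPM.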
